A study of Homo sapiens with 20 samples.

Results

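The genes described here are the replication checkpoint genes ATR, ATM, CHEK1, CHEK2, CLSPN, TOPBP1, TIMELESS, TIPIN, ATRIP and RAD9A, chosen by name. For each, the array feature (transcript cluster) annotated to that gene alone was used, and the brightest by mean log2(intensity + 1) where there were several. Of these 10 genes 9 were measured, out of 18417 genes tested. ATRIP was on 1 feature only, shared with TREX1, and is not analysed here. CLSPN had 2 features and each of the other 8 genes had 1.

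RNA came from LNCaP, a long-established line of human prostate cancer cells, and was profiled on 20 Affymetrix human gene arrays in 7 groups. Cells of the CDT group, a hormone-depleted control, spent 72 h in CDT and received ethanol for the last 3 h. The CDT + DHT group spent 72 h in CDT and received the androgen DHT for 3 h, at a dose its own label does not state. In the 5 arrested groups, 10 nM DHT was given for the last 3 h to cells grown in hormone-proficient medium, on top of a drug. Early G1 cells received 0.5 uM PD0332991, an inhibitor of CDK4 and CDK6, for 24 h. Late G1 cells received 5 ug/mL roscovitine, a CDK inhibitor, for 24 h. Early S cells received 2 ug/mL aphidicolin, a DNA polymerase inhibitor, for 24 h. Late S cells received 1 mM hydroxyurea, a ribonucleotide reductase inhibitor, for 24 h. G2/M cells received 2 ug/mL aphidicolin for 15 h and then 50 ng/mL nocodazole, a microtubule poison, for 9 h. Early S had 2 arrays and every other group 3. The arrested groups differ from CDT in medium, drug and DHT together, and from CDT + DHT in medium and drug. Within each of these comparisons these cannot be told apart. Each phase is known only by its drug.

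Replication stress exposes single-stranded DNA coated by RPA, to which ATRIP brings the kinase ATR. TOPBP1 and the ring-shaped clamp that holds RAD9A switch ATR on, and claspin (CLSPN) presents CHEK1 to it, while the TIMELESS-TIPIN pair travels with the fork and holds this signal together. ATM answers chiefly to double-strand breaks and acts through CHEK2. Much of this signalling is phosphorylation of existing protein, which RNA levels do not show. LNCaP was derived from a prostate cancer, a tissue in which androgen signalling controls growth and differentiation.

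The arrays varied among themselves as much as many groups did. Over the 9209 brighter genes, array pairs of the same group correlated at 0.581 to 0.935 (median 0.835) and pairs of different groups at 0.461 to 0.915 (median 0.774). A single axis held 43.8% of the variance within groups, with late S 1, early G1 2, CDT 1 and CDT + DHT 3 (groups with replicate numbers) farthest to one side. These 4 are called below the arrays that stood apart. Late S 2 lay about as far to the other side, at -1.90 beside 2.00 for late S 1. CDT 2 (-1.18) and early G1 1 (-1.09) also lay about as far out there as CDT + DHT 3 (1.18). None of these arrays on the other side is among the 4. Markers of the luminal prostate epithelium (6 of 9 listed genes measured) averaged 5.88 to 7.67 per array on the log2(intensity + 1) scale. Basal markers (2 of 3 measured) averaged 2.41 to 4.41, stromal markers (5 of 5) 2.75 to 4.27 and leukocyte markers (4 of 4) 2.35 to 3.71, and no feature was listed at 0. KLK2, an androgen target, averaged 5.75 ± 0.09 (SD, n = 3) in CDT and between 7.88 and 8.72 in the other groups. CCNB1, the mitotic cyclin B1, averaged 8.46 ± 0.16 (SD, n = 3) in G2/M and 5.59 ± 0.35 (SD, n = 3) in late G1. Its means in the other groups were 6.68 to 7.33, and early G1, at 7.24, did not stand out from the unarrested CDT + DHT cells (7.33). No detection calls came with the values. Nothing in the labels ties a replicate to its own culture, so each p-value weighs a difference against spread that may be technical. In bulk RNA, fewer cells of a kind and less RNA per cell cannot be told apart.

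None of the 9 genes passed an adjusted p of 0.05 in any of the 20 comparisons (limma, Benjamini-Hochberg over 18417 genes). The share of all genes that passed was itself small. It was 0% for CDT + DHT against CDT. Against CDT it was 0.00543% for early G1, 0.103% for late G1, 0.0326% for early S, 0.0977% for late S and 0.109% for G2/M. Against CDT + DHT it was 0% for early G1, 0.516% for late G1, 0.00543% for early S, 0.0706% for late S and 0.44% for G2/M. Against the mean of the other 4 arrests it was 0% for early G1, 0.706% for late G1, 0% for early S, 0.0271% for late S and 0.0271% for G2/M. It was 0.114% for both S blocks against both G1 arrests, 0.00543% for late S against early S, 0% for G2/M against early S and 0.255% for any difference among the arrests. With so few genes called anywhere, 0 of 9 is near the background.

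At an unadjusted p below 0.05 the count of the 9 genes was between 0 and 3 per comparison. It was 1 (ATM) for late G1 against CDT, beside 9.06% of all genes, and 1 (CLSPN) for early S against CDT, beside 5.57%. Against CDT + DHT it was 1 (TOPBP1) for early G1 beside 8.07%, 1 (TIMELESS) for late G1 beside 14%, and 1 (CLSPN) for late S beside 10.2%. CHEK1, CLSPN and TOPBP1 were the 3 for early S against CDT + DHT, beside 7.62% of all genes, and the same 3 for G2/M against CDT + DHT, beside 15.1%. The comparisons with CDT + DHT share its 3 arrays. Late G1 against the other arrests gave 2 (CHEK1 and TIMELESS) beside 10.5%, the S blocks against the G1 arrests 3 (CHEK1, CLSPN and TIMELESS) beside 4.78%, and any difference among the arrests 1 (CHEK1) beside 6.89%. The remaining 10 comparisons gave 0.

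**Figure D1:**
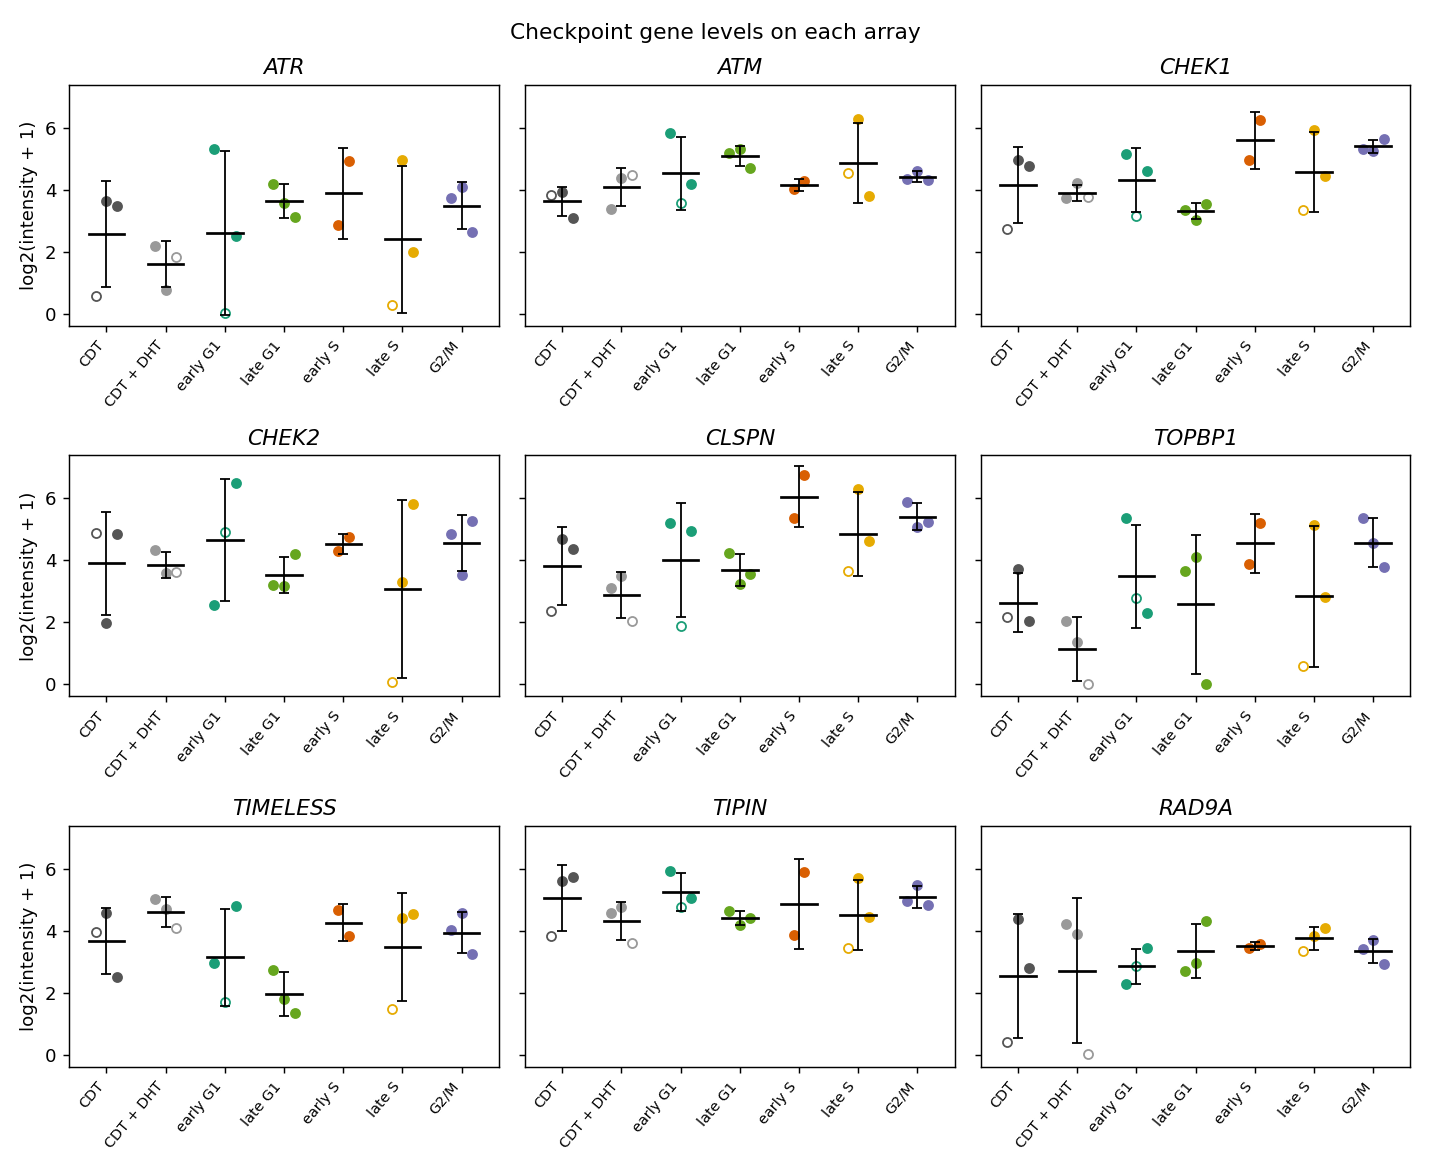
Level of each of the 9 genes on every array as log2(intensity + 1), by group. Points are arrays (n = 2 in early S, n = 3 elsewhere), open points are the 4 arrays that stood apart, and bars are the mean and SD. CLSPN and CHEK1 have their highest means in early S (6.05 and 5.59), and TIMELESS has its lowest in late G1 (1.96).

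The plot of levels by group shows each gene in its own panel, on an axis shared by all panels. Intensities of different features cannot be set against each other, so heights should not be compared between panels. All levels below are log2(intensity + 1), with replicates in the order of their numbers, and all differences are on the same scale. For dim genes the size of a difference on that scale depends on the pseudocount. Every one of the 16 pairwise differences with an unadjusted p below 0.05 (limma) was over 1.5 times smaller with a pseudocount of 16.

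ATR, the apical kinase of the replication checkpoint, had its highest mean in early S and its lowest in CDT + DHT. Its levels were 0.59, 3.65 and 3.49 in CDT, 2.18, 0.77 and 1.85 in CDT + DHT, 5.30, 0.02 and 2.52 in early G1, and 4.20, 3.57 and 3.11 in late G1. They were 2.85 and 4.93 in early S, 0.28, 4.95 and 1.99 in late S, and 3.75, 4.09 and 2.63 in G2/M. Every array of late G1, early S and G2/M lay above every CDT + DHT array, while early G1 and late S spanned nearly the whole range. In mean level the order ran early S, late G1, G2/M, early G1, CDT, late S, CDT + DHT, over a span of 2.29, and no neighbours in it differed by more than the larger of their SDs. Late G1 minus CDT + DHT was 2.03 ± 1.18 (SE; 95% interval -0.44 to 4.50; limma adjusted p = 0.463), and G2/M minus CDT + DHT was 1.89 ± 1.18 (adjusted p = 0.471). ATR was dim, with a mean level of 2.84 over all arrays where the median over genes was 3.17. Its 4 lowest arrays were early G1 2 (0.02), late S 1 (0.28), CDT 1 (0.59) and CDT + DHT 2 (0.77), of which the last did not stand apart.

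ATM, the double-strand break kinase, was highest in late G1 and lowest in CDT. It stood at 3.83, 3.94 and 3.10 in CDT and at 5.19, 5.33 and 4.71 in late G1, and these groups did not overlap. The means of the other groups lay between, with arrays at 3.37, 4.39 and 4.49 in CDT + DHT, 5.82, 3.56 and 4.20 in early G1, 4.03 and 4.29 in early S, 4.53, 6.27 and 3.79 in late S, and 4.34, 4.62 and 4.30 in G2/M. Late G1 exceeded CDT by 1.45 ± 0.63 (SE; 95% interval 0.13 to 2.77; unadjusted p = 0.0329, limma adjusted p = 0.49). By mean level the groups ran late G1, late S, early G1, G2/M, early S, CDT + DHT, CDT, and among neighbours the gap passed the larger SD only between G2/M and early S. These means spanned 1.45, and the S blocks minus the G1 arrests came to -0.29 ± 0.47 (adjusted p = 1).

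CHEK1, the effector kinase that ATR phosphorylates, was low in late G1 and high in early S and G2/M. Late G1 gave 3.36, 3.02 and 3.53, early S 4.95 and 6.24, and G2/M 5.31, 5.24 and 5.65. The 3 late G1 arrays were all below the 5 early S and G2/M arrays, and late G1 and G2/M were also tight, with SDs of 0.26 and 0.22. The remaining groups were 2.73, 4.96 and 4.77 in CDT, 3.75, 4.21 and 3.77 in CDT + DHT, 5.16, 3.16 and 4.60 in early G1, and 3.34, 5.93 and 4.44 in late S. In each of CDT, early G1 and late S the lowest array was the 1 that stood apart, and it overlapped late G1. Late G1 minus the mean of the other arrests was -1.66 ± 0.55 (SE; 95% interval -2.82 to -0.50; unadjusted p = 0.00731, limma adjusted p = 0.229). The S blocks exceeded the G1 arrests by 1.28 ± 0.52 (95% interval 0.19 to 2.36; adjusted p = 0.864). G2/M exceeded CDT + DHT by 1.49 ± 0.69 (adjusted p = 0.316), and early S exceeded it by 1.68 ± 0.77 (adjusted p = 0.636). The early S value rests on few arrays and was 1.04 without early S 2. By mean level the groups ran early S, G2/M, late S, early G1, CDT, CDT + DHT, late G1, and only the last gap passed the larger SD.

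CHEK2, the effector kinase on the ATM side, had group SDs of up to 2.87 (late S) against a span of group means of 1.59. Its means ran from 4.66 in early G1 to 3.07 in late S, in the order early G1, G2/M, early S, CDT, CDT + DHT, late G1, late S, with no neighbours apart by more than the larger SD. The late S arrays alone were at 0.09, 3.31 and 5.81, and early G1 at 2.57, 4.91 and 6.49, so late S alone covered almost the full range of the 20 arrays. CDT stood at 4.88, 1.97 and 4.85, CDT + DHT at 4.32, 3.59 and 3.61, late G1 at 3.20, 3.17 and 4.21, early S at 4.29 and 4.76, and G2/M at 4.84, 3.54 and 5.28. All 19 pairwise differences had an unadjusted p above 0.05, and for the S blocks against the G1 arrests the interval of the difference was -2.07 to 1.47.

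CLSPN and TOPBP1, mediators of ATR signalling, gave the widest spans of group means among the 9 genes. Their promoters are shown with that of TIPIN, the third gene with E2F words, through which many S-phase genes are known to be controlled. That of CHEK1, which lacks E2F words and whose level followed CLSPN most closely among the 9 genes, is shown as well. All 10 genes were found in the RefSeq promoter table (GRCh38.p14), with 15 promoters. The windows run from 120 bases before to 10 bases after the annotated start, at chr1:35769969-35770098 (CLSPN), chr3:133661932-133662061 (TOPBP1), chr15:66356676-66356805 (the TIPIN start with E2F words) and chr11:125626104-125626233 (the most upstream of 3 CHEK1 starts). CHEK1 is on the plus strand and the other genes on the minus strand. Each is written 5′ to 3′ along its gene, with E2F words and CCAAT boxes on either strand in capitals.
CLSPN: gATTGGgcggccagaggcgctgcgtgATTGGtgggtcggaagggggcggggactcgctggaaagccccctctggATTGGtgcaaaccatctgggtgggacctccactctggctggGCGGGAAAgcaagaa
TOPBP1: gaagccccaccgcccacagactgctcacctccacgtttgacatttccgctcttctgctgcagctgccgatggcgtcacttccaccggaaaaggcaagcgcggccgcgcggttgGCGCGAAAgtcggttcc
TIPIN: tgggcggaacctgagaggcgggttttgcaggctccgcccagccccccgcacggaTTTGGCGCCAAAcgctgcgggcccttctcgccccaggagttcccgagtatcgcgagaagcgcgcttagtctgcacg
CHEK1: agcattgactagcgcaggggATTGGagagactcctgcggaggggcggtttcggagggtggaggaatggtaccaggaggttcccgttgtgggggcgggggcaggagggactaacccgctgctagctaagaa

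The E2F words searched on both strands were TTTCCCGC, TTTCGCGC, TTTGCCGC and TTTGGCGC. CLSPN has GCGGGAAA starting 5 bases before its start, after 3 CCAAT boxes written as ATTGG. TOPBP1 has GCGCGAAA starting 7 bases before its start, and TIPIN has TTTGGCGC and GCGCCAAA overlapping 66 and 62 bases before its start. CHEK1 has no E2F word in any of its 3 promoters and a CCAAT box 100 bases before the start shown. Over the full 300-base promoters, 3 of the 10 genes had an E2F word against 3.99% of all 27305 genes (3.31% of promoters). CCAAT was found for 8 of 10 against 39.7% of genes (34.6% of promoters). The cell-cycle homology words TTTGAA and TTCGAA were found for 1 of 10, ATM, against 19.5% of genes (16.4% of promoters). A matching word is a description of the letters and not a measured binding site.

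CLSPN was highest in early S, at 5.36 and 6.74, and lowest in CDT + DHT, at 3.10, 3.49 and 2.04, with no overlap. G2/M stood at 5.89, 5.07 and 5.23 and late S at 3.64, 6.29 and 4.62. All 8 arrays of these 3 groups lay above all 3 CDT + DHT arrays. CDT gave 2.38, 4.68 and 4.38, early G1 5.21, 1.88 and 4.93, and late G1 4.24, 3.23 and 3.55, so these groups overlapped CDT + DHT. CLSPN in early S exceeded CDT + DHT by 3.17 ± 0.94 (SE; 95% interval 1.19 to 5.14; unadjusted p = 0.00329, limma adjusted p = 0.443). G2/M exceeded CDT + DHT by 2.52 ± 0.84 (adjusted p = 0.177), late S by 1.97 ± 0.84 (adjusted p = 0.445), and early S exceeded CDT by 2.23 ± 0.94 (adjusted p = 0.845). Without late S 2 the late S value was 1.25, and without CDT + DHT 3 the G2/M value was 2.10. The S blocks exceeded the G1 arrests by 1.61 ± 0.63 (adjusted p = 0.829), or by 1.07 without early G1 2, the array with the lowest CLSPN level of all 20. Mean levels ran early S, G2/M, late S, early G1, CDT, late G1, CDT + DHT over a span of 3.17, and only the gap from late G1 to CDT + DHT passed the larger SD. The second CLSPN feature, dimmer at a mean of 1.61, correlated at 0.58 with the first over the arrays. It was also highest in early S (mean 2.76), G2/M (2.61) and late S (2.15), but lowest in CDT (0.29) rather than CDT + DHT (1.67).

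TOPBP1, the activator of ATR, was highest in G2/M and lowest in CDT + DHT. G2/M stood at 5.35, 4.57 and 3.77 and early S at 3.88 and 5.21, against 2.05, 1.36 and 0.03 in CDT + DHT. Neither overlapped CDT + DHT, nor did early G1. CDT was at 2.16, 3.73 and 2.03, early G1 at 5.37, 2.78 and 2.30, late G1 at 3.64, 4.11 and 0.01, and late S at 0.58, 5.13 and 2.81. The difference from CDT + DHT was 3.42 ± 1.12 for G2/M (SE; 95% interval 1.08 to 5.76; unadjusted p = 0.0064, limma adjusted p = 0.165), 3.40 ± 1.25 for early S (adjusted p = 0.516) and 2.34 ± 1.12 for early G1 (adjusted p = 0.617). Without early G1 1 the last of these was 1.40, and without CDT + DHT 3 the G2/M value was 2.86. By mean level the groups ran G2/M, early S, early G1, late S, CDT, late G1, CDT + DHT, with no neighbours apart by more than the larger SD. TOPBP1 was among the 3 members, with ATR and RAD9A, below the median level of all genes, where sizes depend most on the pseudocount: with a pseudocount of 16 the G2/M value was 1.18.

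TIMELESS, the larger part of the fork protection pair, had a different order, with CDT + DHT highest and late G1 lowest. CDT + DHT stood at 5.03, 4.71 and 4.09 and late G1 at 2.73, 1.80 and 1.35, with no overlap. The others were 3.95, 4.56 and 2.51 in CDT, 2.95, 1.69 and 4.80 in early G1, 4.68 and 3.84 in early S, 1.47, 4.42 and 4.54 in late S, and 4.01, 4.56 and 3.26 in G2/M. Early G1 2 and late S 1, both among the arrays that stood apart, were the 2 arrays outside late G1 below 2.51. Late G1 minus CDT + DHT was -2.65 ± 0.83 (SE; 95% interval -4.39 to -0.91; unadjusted p = 0.00475, limma adjusted p = 0.156), and late G1 minus the mean of the other arrests was -1.75 ± 0.66 (adjusted p = 0.322). The S blocks exceeded the G1 arrests by 1.32 ± 0.62 (adjusted p = 1). The order of means was CDT + DHT, early S, G2/M, CDT, late S, early G1, late G1, with no neighbours apart by more than the larger SD.

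TIPIN, the partner of TIMELESS, had the smallest span of means, 0.93. It was at 3.82, 5.59 and 5.72 in CDT, 4.57, 4.77 and 3.62 in CDT + DHT, 5.93, 4.78 and 5.05 in early G1, and 4.64, 4.19 and 4.42 in late G1. It was at 3.85 and 5.90 in early S, 3.43, 5.69 and 4.43 in late S, and 4.95, 5.48 and 4.84 in G2/M. The early G1 and G2/M arrays all lay above all 3 CDT + DHT arrays, and the other groups overlapped them. G2/M minus CDT + DHT was 0.77 ± 0.67 (95% interval -0.62 to 2.16; limma adjusted p = 0.62). The order of means ran early G1, G2/M, CDT, early S, late S, late G1, CDT + DHT, with no neighbours apart by more than the larger SD.

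RAD9A, the clamp subunit, was even across the arrested groups and uneven in the controls. The arrested arrays stood at 2.29, 2.85 and 3.43 in early G1, 2.71, 2.97 and 4.33 in late G1, 3.43 and 3.59 in early S, 3.35, 3.84 and 4.08 in late S, and 3.42, 3.71 and 2.92 in G2/M. CDT was at 0.42, 4.38 and 2.80 and CDT + DHT at 4.22, 3.90 and 0.02, and the low array of each was the 1 that stood apart. The means ran late S, early S, G2/M, late G1, early G1, CDT + DHT, CDT over 1.22, again with no neighbours apart by more than the larger SD. Late S minus CDT was 1.22 ± 0.94 (95% interval -0.76 to 3.20; limma adjusted p = 0.912).

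**Figure D2:**
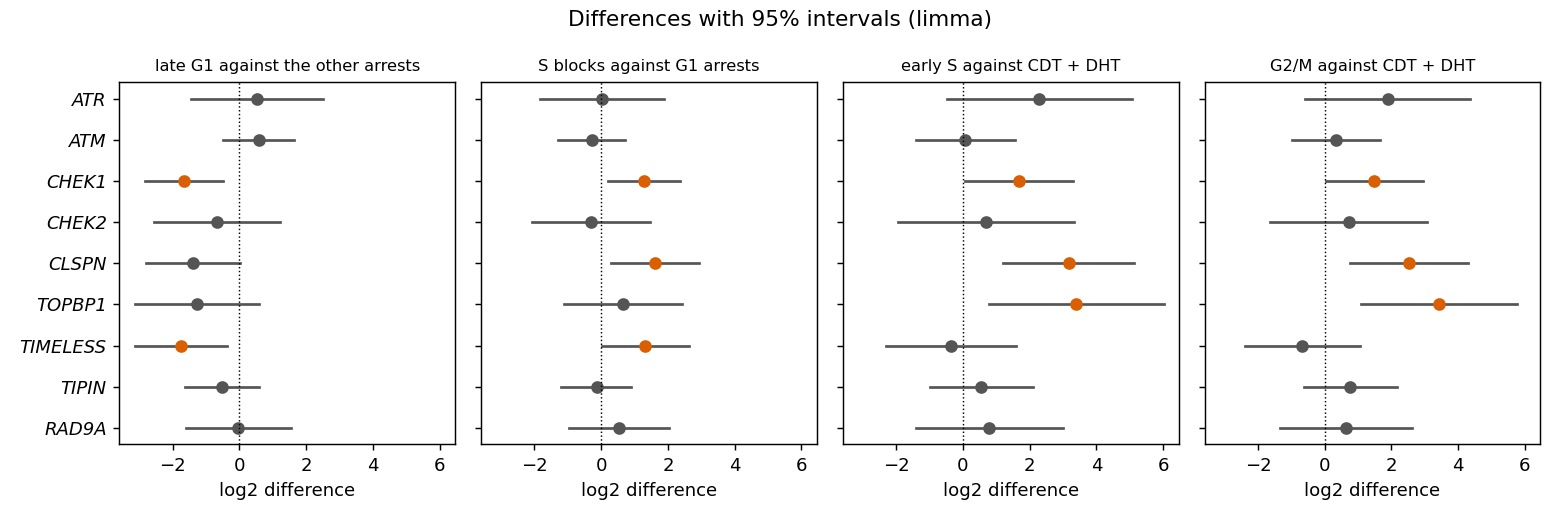
Log2 differences (points) with 95% intervals from limma (lines) for the 9 genes in 4 comparisons; orange marks an unadjusted p below 0.05, and none passed after adjustment. CHEK1 and TIMELESS lie below 0 in late G1 against the other arrests (-1.66 and -1.75), and CLSPN and TOPBP1 lie above 0 in early S and G2/M against CDT + DHT.

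The plot of differences with intervals sets 4 comparisons side by side. In G2/M against CDT + DHT, 5 of 9 genes had groups that did not overlap with G2/M higher (ATR, CHEK1, CLSPN, TOPBP1 and TIPIN), beside 15.1% of all genes. In early S against CDT + DHT 4 did (ATR, CHEK1, CLSPN and TOPBP1), beside 15.3%. In late G1 against CDT + DHT, ATR and ATM were higher without overlap, beside 10.8% of all genes, and CHEK1 and TIMELESS were lower without overlap, beside 14%. The median difference of the 9 genes was 0.77 in G2/M against CDT + DHT, where that of all genes was -0.05, and 0.79 in early S against CDT + DHT, where that of all genes was 0.06. For CDT + DHT against CDT, the hormone comparison, the differences ran from -1.49 (TOPBP1) to 0.93 (TIMELESS), with a median of -0.25 beside -0.10 for all genes. For late S against early S they ran from -1.71 (TOPBP1) to 0.70 (ATM), with 2 of 9 above 0 and a median of -1.02 beside -0.19.

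**Figure D3:**
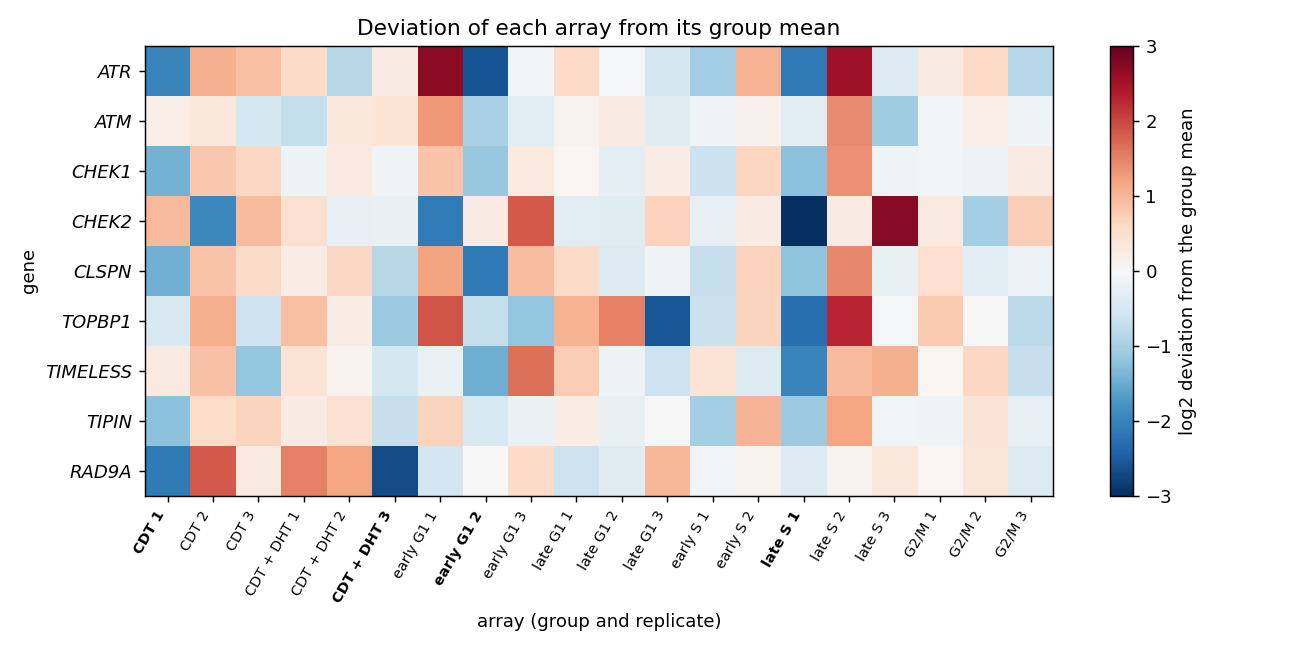
Deviation of each array (columns, by group and replicate; bold marks the 4 arrays that stood apart) from its group mean in log2(intensity + 1), for the 9 genes (rows); red is above and blue below the mean. Late S 1 is the lowest of its group for 8 of 9 genes, and late S 2 the highest for 6.

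Within groups the members were often high or low together on 1 array, as the map of deviations from the group means shows. Late S 1 was the lowest of its group for 8 of 9 genes, beside 55.9% of all genes, and late S 2 the highest for 6 (50.7%). Early G1 2 was lowest for 6 (51.2%), CDT 1 for 5 (37.2%) and CDT + DHT 3 for 5, a share no higher than that of all genes (57.8%). Arrays that did not stand apart did the same: CDT 2 was highest for 7 (38.9%), early G1 1 highest for 6 (28.5%) and G2/M 3 lowest for 6 (34.2%). Early S 2 exceeded early S 1 for 8 of 9 genes (51.4%). The mean over the 9 genes was lowest on late S 1 (2.30) and highest on late S 2 (5.09), so that the widest contrast lay within 1 group.

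Several fits that weigh or correct the arrays did call members. Without the 4 arrays that stood apart, 3 genes were lower in late G1 than in the other arrests, beside 2.2% of all genes. They were CHEK1, at -1.96 ± 0.40 (limma adjusted p = 0.0195), TIMELESS, at -2.18 ± 0.52 (adjusted p = 0.0421), and CLSPN, at -1.82 (adjusted p = 0.0427). Those arrays were found from the data and all lay on the same side of the within-group axis, while late S 2 and early G1 1, on the other side, were kept. Early G1 2 and late S 1 held the lowest level of their groups for CHEK1, TIMELESS and CLSPN. Leaving them out therefore raised the means that late G1 was set against. Late S and early G1 then kept 2 arrays each, as did CDT and CDT + DHT. With array weights, CHEK1 passed in that comparison at an adjusted p of 0.0494 (1 gene, beside 2.05%), TIMELESS passed as lower in late G1 than in CDT + DHT (1 gene, beside 5.86%), and CLSPN and TOPBP1 passed as higher in G2/M than in CDT + DHT (2 genes, beside 9.06%). When the fit held no group but G2/M and CDT + DHT, TOPBP1 passed as higher in G2/M (1 gene, beside 2.19%).

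With each array's score on the axis of within-group variance as a covariate, the size of the differences stayed and their errors shrank. In G2/M against CDT + DHT, CHEK1, CLSPN and TOPBP1 then passed (3 genes, beside 7.72% of all genes). CLSPN passed in early S (beside 2.4%) and in late S against CDT + DHT (beside 1.16%), and TIMELESS in late G1 against CDT + DHT (beside 5.33%). CHEK1 and CLSPN passed in late G1 against the other arrests (beside 2.04%) and for any difference among the arrests (beside 1.04%), and CLSPN for the S blocks against the G1 arrests (beside 0.353%). This score is computed from the same arrays and is centred within groups, so it lowers the residual spread by construction and its adjusted p-values can be too small. Leaving out each array in turn called 0 members in all 20 comparisons.

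**Figure D4:**
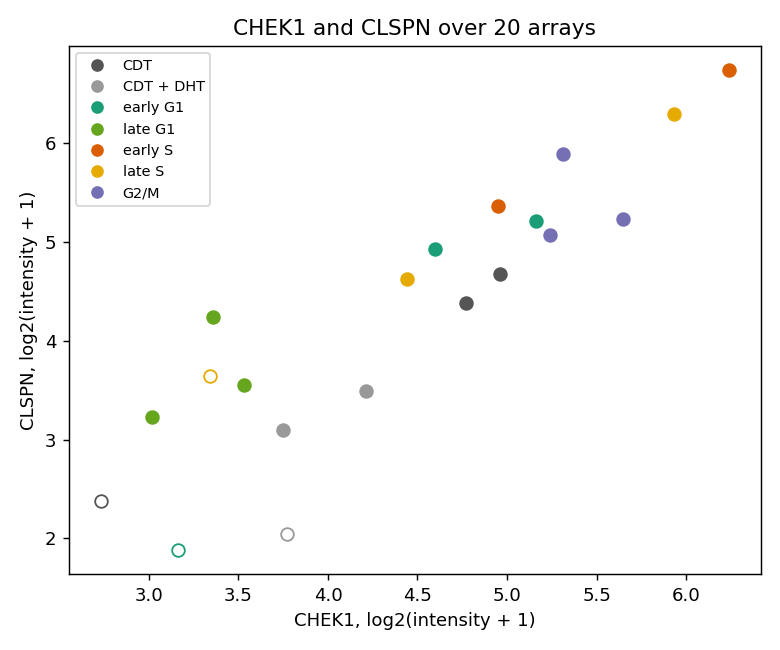
CHEK1 (x axis) against CLSPN (y axis), both log2(intensity + 1), on the 20 arrays; colours are groups and open points are the 4 arrays that stood apart. The points run along 1 diagonal (r = 0.89), with early S 2 at its top (6.24 and 6.74).

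The levels of CHEK1 and CLSPN went together array by array, as the plot of these genes against each other shows. Over 20 arrays Pearson's r was 0.89 (permutation p = 1e-05, the smallest 100000 resamples can give; adjusted over 36 pairs, 0.00036) and Spearman's rho was 0.89 (permutation p = 1e-05; adjusted 0.00036). It was 0.85 without the 2 arrays farthest from the CHEK1 median, 0.90 over the 16 arrays left without the 4 that stood apart, and 0.91 within groups. Arrays of a group are not independent of the group's treatment, and all genes on an array share its quality. The 36 pairs had a mean r of 0.33, where all pairs of the genes tested had 0.05. An adjusted permutation p below 0.05 for both r and rho was found for 10 pairs, and these were all pairs among ATR, CHEK1, CLSPN, TOPBP1 and TIPIN. Without the 4 arrays that stood apart, r over these pairs ran from 0.40 (ATR with CHEK1) to 0.90 (CHEK1 with CLSPN). TOPBP1 with TIPIN then gave 0.41. Over the 7 group means it ran from 0.29 (ATR with TIPIN) to 0.90 (CLSPN with TOPBP1). ATR with CLSPN gave r = 0.74 (rho 0.70; permutation p = 0.00027, adjusted 0.00444), 0.70 without the 2 arrays farthest from the ATR median and 0.58 without the 4 arrays that stood apart, and CLSPN with TOPBP1 gave 0.72 (rho 0.73; permutation p = 0.00037, adjusted 0.00444). TIMELESS and TIPIN, partners in 1 complex, gave r = 0.19 (rho 0.12; permutation p = 0.426, adjusted 0.632). ATM and CHEK2 gave r = -0.42 (permutation p = 0.0625, adjusted 0.161) and rho = -0.65 (permutation p = 0.00257, adjusted 0.0132).

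Among the brighter genes, those most like CLSPN over the 20 arrays were NASP, a histone chaperone (r = 0.95), RRM1, the large subunit of ribonucleotide reductase (0.92), and CENPU, a centromere protein (0.92), with CHEK1 at rank 13. Those most like CHEK1 were H2AZ1, a histone variant, NASP and AHNAK (0.91 each), with CLSPN at rank 8. ARRDC3, CUL4B and ZNHIT6 were most like ATR (0.93 each), and RPAP3 (0.81), GMFB and CEP70 (0.78 each) most like ATM. These are descriptions over arrays that share the same within-group axis.

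**Figure D5:**
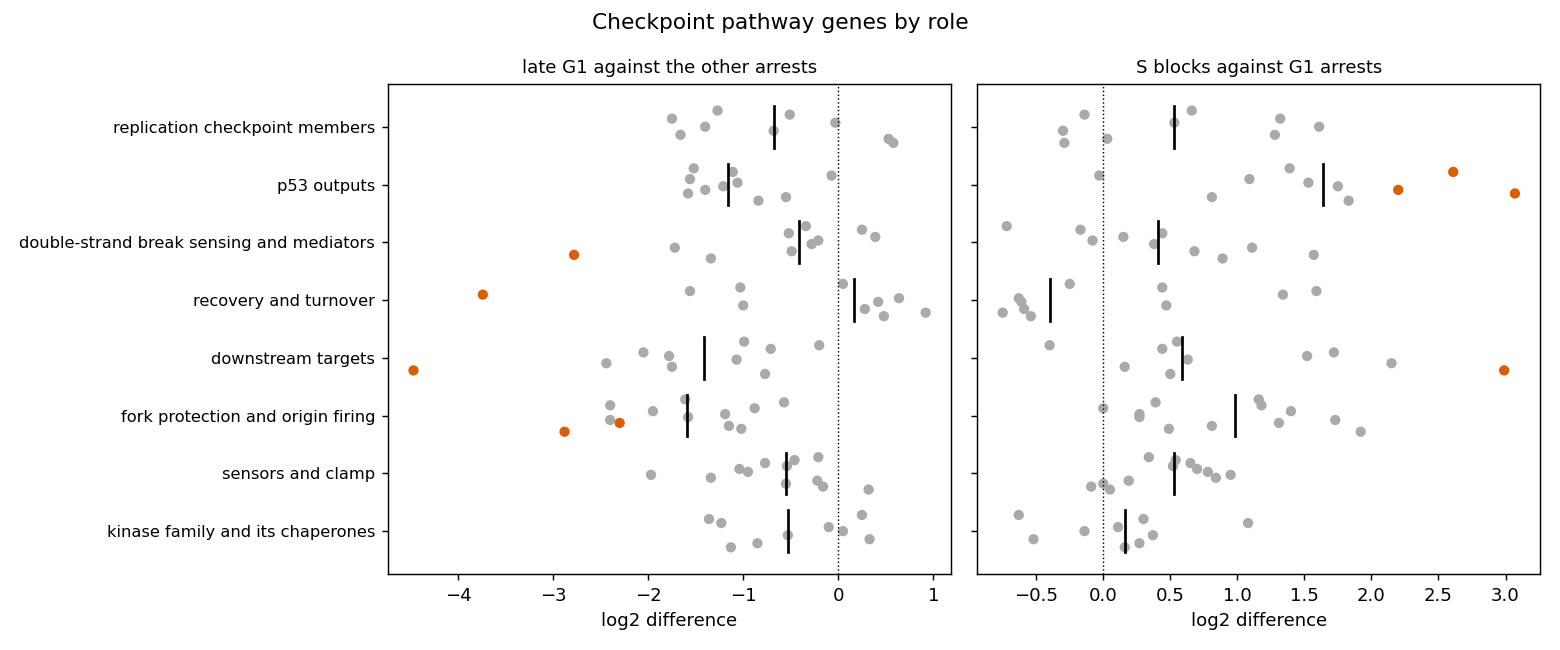
Log2 differences (points, 1 per gene) of the checkpoint members and of 7 lists of related genes, in late G1 against the other arrests (left) and in the S blocks against the G1 arrests (right). Black bars are list medians and orange marks a limma adjusted p below 0.05; CDC25B and PLK1 lie lowest on the left (-4.47 and -3.74), and CDKN1A and CDC25B highest on the right (3.07 and 2.99).

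Other genes of the pathway were followed in 7 lists by role, shown in the plot of pathway genes by role. Among the 12 sensor and clamp genes (RPA, the clamp and its loader), none passed in any of the 20 comparisons by limma, and their median difference was 0.53 in the S blocks against the G1 arrests, where all genes had 0.06. Among them, RPA3, a subunit of RPA, differed by 0.34 ± 0.38 (adjusted p = 1), and RFC2, of the clamp loader, by 0.84 ± 0.47 (adjusted p = 1). Among the 9 genes of the kinase family and its chaperones none passed in any comparison. PRKDC, the DNA-dependent kinase related to ATR and ATM, was 3.12 ± 0.95 above CDT + DHT in G2/M (adjusted p = 0.138).

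Among the 12 fork protection and origin firing genes, 2 fell in late G1 against the other arrests and 0 rose, beside 0.706% of all genes (130 called, of which 3 were higher). CDC45, part of the replicative helicase, averaged 2.52 ± 0.55 (SD, n = 3) in late G1 and between 4.74 and 5.80 in the other arrests, a difference of -2.88 ± 0.50 (SE; limma adjusted p = 0.00715). GINS1, of the same helicase, differed by -2.30 ± 0.50 (adjusted p = 0.0335). All 12 lay below 0 with a median of -1.59, where all genes had -0.09, and 11 of 12 lay above 0 in the S blocks against the G1 arrests (median 0.99 beside 0.06), with none called. The CDC45 call was lost without late G1 1 or late G1 3, where its largest adjusted p was 0.0737. The GINS1 call was lost in 6 of the 20 fits that each left out 1 array, with a largest adjusted p of 0.248.

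The share of all genes called in late G1 was 0.103% against CDT, 0.516% against CDT + DHT and 0.706% against the other arrests. Of those 19, 95 and 130 genes, 1, 5 and 3 were higher. The share was 0.114% for the S blocks against the G1 arrests and 0.0271% for G2/M against the other arrests. Among 10 double-strand break genes 1 fell: H2AX, the histone marked at breaks, was -3.58 ± 0.59 from CDT + DHT (limma adjusted p = 0.00891) and -2.78 ± 0.47 from the other arrests (adjusted p = 0.00621) in late G1. Without late G1 3 these were not called (largest adjusted p 0.0635 and 0.0944), and the first was also lost without CDT + DHT 1 or CDT + DHT 2. Among 10 measured downstream targets 1 changed, CDC25B, a phosphatase that activates CDKs. It averaged 1.86 ± 0.58 (SD, n = 3) in late G1 and 5.09 to 7.30 in the other arrests. Late G1 differed by -4.71 ± 0.55 from CDT (adjusted p = 0.000963), -4.62 ± 0.55 from CDT + DHT (adjusted p = 0.000548) and -4.47 ± 0.44 from the other arrests (adjusted p = 3.17e-05), and the S blocks exceeded the G1 arrests by 2.99 ± 0.41 (adjusted p = 0.00279). Among 10 recovery and turnover genes, PLK1, a mitotic kinase that ends the checkpoint by marking claspin for removal, changed. It averaged 1.87 ± 0.63 (SD, n = 3) in late G1 and 7.47 ± 0.73 (SD, n = 3) in G2/M. It was lower in late G1 than in CDT (-4.03 ± 0.55, adjusted p = 0.00319), CDT + DHT (-4.89 ± 0.55, adjusted p = 0.000521) and the other arrests (-3.74 ± 0.44, adjusted p = 0.000245), and higher in G2/M than in the other arrests (3.26 ± 0.44, adjusted p = 0.00407). The last of these was lost without G2/M 2 (adjusted p = 0.0869).

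Among 10 measured p53 outputs, 3 rose in the S blocks against the G1 arrests, beside 0.114% of all genes (21 called, all of them higher), with a list median of 1.64 beside 0.06 for all genes. CDKN1A, the CDK inhibitor p21, averaged 8.49 ± 0.08 (SD, n = 2) in early S and 8.85 ± 0.48 (SD, n = 3) in late S, against 5.21 ± 0.99 (SD, n = 3) in early G1 and 5.99 ± 0.28 (SD, n = 3) in late G1. Its S-block difference was 3.07 ± 0.44 (limma adjusted p = 0.00386). DDB2, a damage-recognition factor, differed by 2.20 ± 0.33 (limma adjusted p = 0.00514) and TP53I3 by 2.61 ± 0.45 (adjusted p = 0.0187). High levels were not particular to the S blocks, since the G2/M means of these 3 genes also lay above both G1 means. G2/M averaged 7.73 for CDKN1A. DDB2 averaged 6.78 in G2/M, 6.53 in early S and 7.31 in late S, and TP53I3 5.89, 5.80 and 6.31. All 3 were also higher in late S than in CDT, beside 0.0977% of all genes (18 called, all of them higher). The differences were 3.88 ± 0.59 (CDKN1A, limma adjusted p = 0.0123), 2.53 ± 0.44 (DDB2, adjusted p = 0.0336) and 3.76 ± 0.60 (TP53I3, adjusted p = 0.0198). CDT had no DHT. In late S against CDT + DHT, 0 of the 10 passed, though all 10 lay above 0 (median 1.86 beside -0.01). There CDKN1A differed by 2.42 ± 0.59 (limma adjusted p = 0.148), and CDT + DHT exceeded CDT by 1.46 ± 0.59 (adjusted p = 0.696). TP53I3 was higher in G2/M than in CDT by 3.34 ± 0.60 (limma adjusted p = 0.029), beside 0.109% of all genes called. MDM2, the ligase that turns over p53, was higher in G2/M than in CDT + DHT by 3.87 ± 0.83 (adjusted p = 0.0472), beside 0.44%. The MDM2 call was kept in 5 of the 20 fits that each left out 1 array, the G2/M call of TP53I3 in 14 (largest adjusted p 0.233), and the calls in late S against CDT were kept in 18 (CDKN1A), 10 (DDB2) and 17 (TP53I3). The S-block calls of CDKN1A and DDB2 were kept in all 20, and that of TP53I3 in 13. Without the 4 arrays that stood apart, 7 of 29 calls of related and check genes were lost, among them CDKN1A and DDB2 in late S against CDT and TP53I3 in G2/M against CDT. When the fit held only the groups of each comparison, 19 of the 29 calls of related and check genes were lost, while CDC25B and PLK1 in late G1 against the other arrests and CDKN1A in the S blocks against the G1 arrests passed under each of the 32 alternatives run.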

How the data were processed

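LNCaP RNA was amplified with the Ovation Pico kit and biotin-labelled, per the labels' protocols. The deposited values are feature intensities on a linear scale, and the submitters' processing notes name Affymetrix Expression Console 1.1. How features were summarised and normalized is not given in the sources used here. Array medians were 5.44 to 9.08. Of 33297 features 19460 carried 1 gene symbol, 1754 several and 12083 none, giving 18417 genes. Differences of log2(intensity + 1) were fitted over all 20 arrays, with 1 coefficient per group, in limma 3.58.1 (R 4.3.3; lmFit, eBayes), and called at a Benjamini-Hochberg p, adjusted across the 18417 genes, below 0.05. The fit was also run on simulated data, with noise drawn independently for each gene and array. Such noise lacks the shared within-group axis, so that run cannot show how the fit behaves under it. The number of arrays limits the precision. The genes and lists were chosen with earlier results of these data known. Named were all members; per list and comparison, up to 4 passing genes and the 2 brightest others were eligible; for ATR, ATM, CHEK1 and CLSPN, the 3 most alike genes. CCNE2 and MCM5 were checks too, averaging 5.01 and 4.64 in early S. That was the lowest of the 7 group means of MCM5, which was highest in CDT (6.71), while CCNE2 was highest in late S (5.16). Alternatives covered scaling, pseudocount, filtering, feature choice, array weights, covariates and left-out arrays.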

Additional observations from a re-analysis of the deposited data

Results flagged for a closer look

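For CHEK1, both early S arrays lay above the CDT mean and all 3 late G1 arrays below it, with early S and late G1 means 2.29 apart. The same held around the CDT + DHT mean, again 2.29 apart. All 3 G2/M arrays also lay above the CDT mean with late G1 below it, 2.10 apart, and the same held around the CDT + DHT mean, 2.10 apart. For TIMELESS, both early S arrays lay above and all 3 late G1 arrays below the CDT mean, 2.30 apart. These patterns place arrests on opposite sides of a control mean, and the pairwise differences between those arrests were not tested. No difference of these groups from either control passed. CHEK1 in late G1 was -0.85 ± 0.69 from CDT (limma adjusted p = 0.777) and -0.60 ± 0.69 from CDT + DHT (adjusted p = 0.76). TIMELESS was 0.58 ± 0.93 from CDT in early S (adjusted p = 0.961) and -1.72 ± 0.83 in late G1 (adjusted p = 0.561), and both groups overlapped CDT. The limma test for any difference among the 5 arrests did not pass for CHEK1 (adjusted p = 0.672) or TIMELESS (adjusted p = 0.863).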

How the results depend on the processing

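The count of members called was 0 in each of the 20 comparisons and stayed 0 except in these fits. Array weights gave for late G1 against CDT + DHT 1, for G2/M against CDT + DHT 2 and for late G1 against the other arrests 1. Only the compared groups gave 1 in G2/M against CDT + DHT. The residual score gave against CDT + DHT 1 each for late G1, early S and late S and 3 for G2/M, 2 for late G1 against the other arrests, 1 for the S blocks against the G1 arrests and 2 for any difference among the arrests. Leaving out the 4 arrays gave 3 for late G1 against the other arrests. The 16 differences with an unadjusted p below 0.05 gave 509 values under 31 to 32 alternatives each; 494 stayed on their side of the threshold, 15 passed it and 0 turned sign. Quantile normalization moved the median of all genes by over 0.1 in 5 of 19 comparisons (from -0.19 to 0.17 as deposited, to -0.11 to 0.06). The filter on dim genes kept 6 of 9 members. The highest group of each member was the same under quantile normalization and a pseudocount of 16; under the latter the lowest became late G1 for CHEK2 and early G1 for RAD9A. Of 29 calls of related or check genes, 12 held in all 20 fits that left out 1 array and 0 of 928 values turned sign. Deviations of same-numbered arrays of different groups had no common direction (57 pairs, correlation -0.682 to 0.664, median -0.025). Since the single axis weighs heavily in these correlations, they cannot tell whether equal numbers share a culture or day. With a replicate block 0 members were called in every comparison, and TOPBP1 in G2/M against CDT + DHT was 3.42 (limma adjusted p = 0.143). Intensities near 0 have no detection calls, which limits ATR, TOPBP1 and RAD9A most.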
